A study of Mus musculus with 6 samples.

Results

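The genes described here are 39 genes of DNA repair and of the repair of stalled replication forks, measured in mouse epididymal white adipose tissue by bulk mRNA sequencing. They were taken by symbol from a list of nucleases, single-strand binding proteins, damage kinases, recombination and end-joining factors, ligases and Fanconi anaemia genes, and all 39 were found among the 32244 genes of the deposited table. Tissue came from C57BL/6J mice with a knockout of Eepd1 (EKO) and from wild-type C57BL/6J mice (WT), with 3 libraries per genotype. Both genotypes had received a high-fat diet for 3 months, so no lean tissue enters the comparison. The sources used here do not give the knockout allele, the age of the mice, or whether the replicates of a genotype were separate animals, and each p-value therefore reflects the scatter of these libraries, which may be technical. Where a gene's levels are listed, they follow replicates 1, 2 and 3 of each genotype.

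Replication forks stall when the template is damaged or nucleotides run short. In human cells EEPD1, a nuclease, cleaves stalled forks, EXO1 then resects the cleaved end, replication protein A (RPA) coats the exposed single strand, and the ATR kinase is activated. Homologous recombination then rebuilds the fork, while end joining competes for the broken end. Most cells of adult fat are not dividing, and in obese fat the dividing cells include macrophages and adipocyte progenitors, so transcripts of S-phase repair factors in whole tissue report on several cell types at once.

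Library totals ran from 17215072 to 18330206 counts, and levels are given as CPM, read counts per library size after TMM scaling, a correction for library composition. Eepd1 itself (chromosome 9, 25481547 to 25604110, plus strand, GRCm38) stood at 152, 47.7 and 116 CPM across the EKO libraries, against 244, 304 and 192 CPM across the WT libraries. It was lower in every EKO library yet still present (log2 -1.23 ± 0.42 SE, edgeR adjusted p = 0.106). DESeq2 gave an adjusted p of 0.0162, the lowest of 15 alternatives that reached up to 0.255, and 2 of them passed. The authors' deposited table marks the gene as significant. Its log2 and adjusted p nearly equal those of DESeq2 here on the same counts, so the mark is not separate support. Counts over the whole gene do not show which part was deleted. Adipocyte markers identified the tissue, with all 14 detected in every library, at summed levels of 5914 to 14170 CPM in EKO and 21820 to 31950 CPM in WT. Most macrophage markers stood the other way, 12 of 13 being higher in every EKO library (25.1% of all tested genes were). The remaining marker, Cd163, was lower in every EKO library. The 13 markers summed to 7423 to 11890 CPM in EKO and 1977 to 4173 CPM in WT. WT replicate 2 stood apart: 9 markers of haploid male germ cells summed to 1856 CPM there, against 2.16 to 25.9 CPM in the other WT libraries and 0.708 to 96.0 CPM in EKO. In EKO replicate 1, 8 of those 9 markers were at 0 counts. In bulk tissue, fewer cells of a type and less RNA per cell cannot be told apart, and the part of these shifts in the results below was not tested.

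The repair genes as a set stood at close levels in the genotypes. Of the 39 genes, 38 had enough counts to be tested; Fen1 did not. The edgeR quasi-likelihood test called 0 of the 38 at a Benjamini-Hochberg adjusted p under 0.05, as it called 0 of all 16121 genes tested (0.0%). At an unadjusted p under 0.05 it passed 4 of the 38, against 32.7% of all tested genes: Parp1 and Brca1 were higher in EKO (18.9% of all tested genes were) and Rad50 and Prkdc lower (13.8%). The DESeq2 Wald test at an adjusted p under 0.05 called 3 of the 38, Rad50, Prkdc and Parp1, against 21.0% of the genes it tested, and limma-voom with sample quality weights called 5, adding Brca1 and Dna2, against 25.4%. The libraries of the genotypes did not overlap for 9 members, against 42.8% of all tested genes. In 7 of them all EKO libraries were higher, against 25.1% of all tested genes, and in 2 all were lower, against 17.7%. The median log2 difference between EKO and WT was 0.02 over the members and 0.02 over all tested genes, and the median size of the difference, ignoring its sign, was 0.19 and 0.40. By sign, 22 members were higher and 16 lower in EKO, but with library totals alone the split was 15 higher and 23 lower. Library totals also moved the median of all tested genes, to -0.08. With quality-weighted limma-voom 30 members were higher and 8 lower, at a median of 0.19 against 0.05 over all tested genes. By role, the median log2 difference ran from -0.05 over 5 end-joining genes to 0.29 over 4 genes of nick and flap repair.

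**Figure D1:**
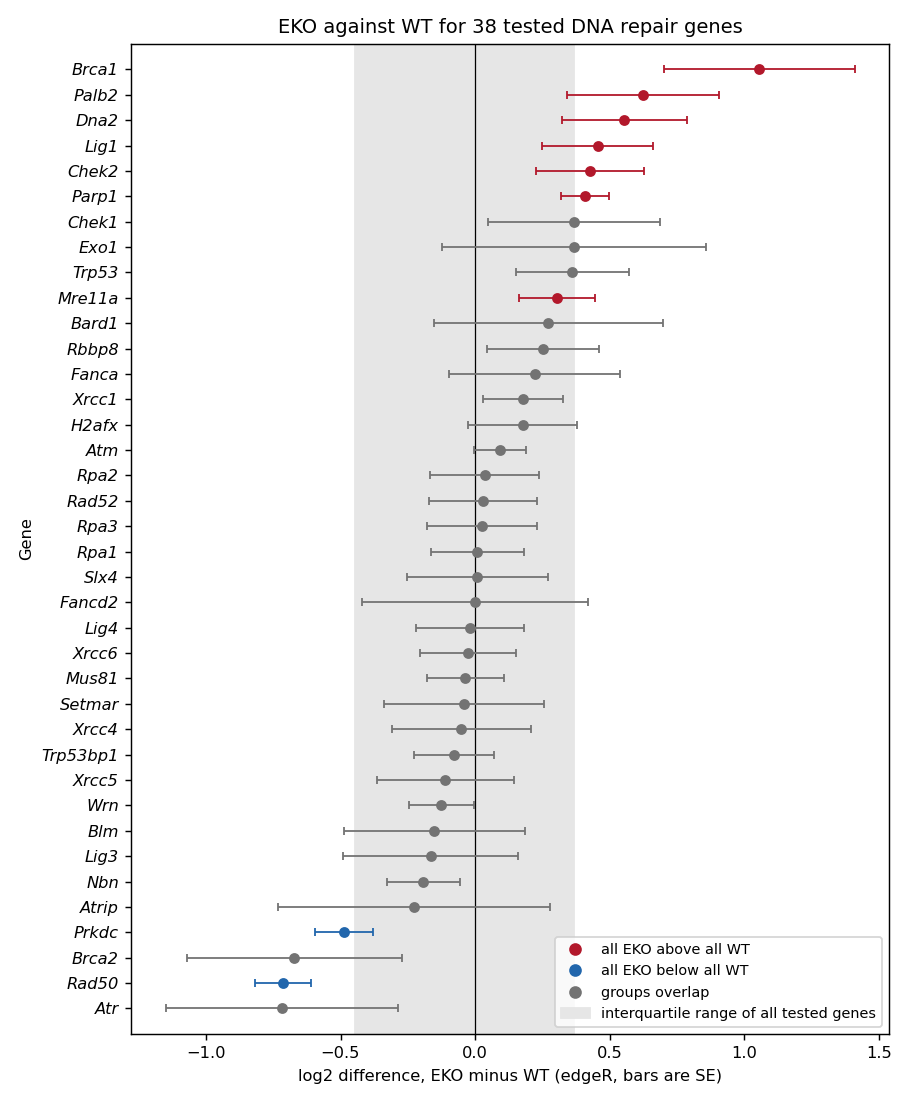
Log2 difference between EKO and WT for the 38 tested repair genes, sorted by size; points are edgeR estimates, bars are standard errors, and the grey band is the interquartile range over all 16121 tested genes. Brca1 at 1.06 and Atr at -0.72 are the extremes, and colour marks the 7 genes with all EKO libraries above all WT libraries and the 2 with all EKO libraries below.

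The resection group holds the nucleases and helicases that trim a broken or cleaved end. Rad50 (chromosome 11, 53649519 to 53707319, minus strand), the ATPase that bridges ends within the Mre11-Rad50-Nbn complex, had the smallest p of all members. It stood at 55.1, 46.1 and 49.4 CPM across the EKO libraries, against 81.1, 85.4 and 80.6 CPM across the WT libraries. Every EKO library lay below every WT library, with a gap wider than the range within either genotype. The means of 50.2 ± 4.56 and 82.4 ± 2.68 CPM (SD, n = 3 per group) made Rad50 1.64-fold lower in EKO, a log2 difference of -0.71 ± 0.10 (SE) with an edgeR adjusted p of 0.0628. Parp1 had nearly the same adjusted value, though the unadjusted edgeR p was 0.000349 for Rad50 and 0.00315 for Parp1. Leaving out WT replicate 2 gave an edgeR adjusted p of 0.0443 and DESeq2 gave 5.25e-07, where 15 alternatives spanned 5.25e-07 to 0.229 and 3 of them passed the threshold. The authors' deposited table gives Rad50 an adjusted p of 5.20e-07, close to that of DESeq2 here on the same counts, but does not mark it as significant. The genes it marks all differ by a log2 of at least 1.

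The partners of Rad50 in the complex were not lower in all EKO libraries; the difference between the genes was not tested. Mre11a, the nuclease subunit, stood at 25.8, 34.6 and 31.5 CPM in EKO, against 23.7, 25.8 and 25 CPM in WT. Its EKO libraries all lay above WT, the closest pair nearly equal (log2 0.30 ± 0.14 SE, edgeR adjusted p = 0.190). Nbn, which recruits the Atm kinase, was at 23.5, 27.4 and 24.9 CPM in EKO and 26.2, 32.8 and 27.7 CPM in WT, with overlap and a log2 difference of -0.19 ± 0.14. Per kilobase of annotated exon, the WT means of Rad50, Nbn and Mre11a were 15.3, 11.4 and 4.19 CPM, and the EKO means were 9.34, 9.98 and 5.17 CPM. Rad50 was thus the highest of the subunits by this scale in WT and close to Nbn in EKO.

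Exo1, the exonuclease that acts after EEPD1 in human cells, was scarce. It stood at 2.36, 4.55 and 2.52 CPM across the EKO libraries, against 1.13, 3.54 and 2.62 CPM across the WT libraries, from 20 to 71 counts per library. The genotypes overlapped and the highest library was 4.03 times the lowest (log2 0.37 ± 0.49 SE, edgeR adjusted p = 0.621). With so few counts and this spread a difference of that size was not detectable. Setmar (Metnase), a partner of EEPD1 in human cells where the protein carries a transposase domain that the mouse protein lacks, stood at 3.13, 2.18 and 2.92 CPM in EKO, against 2.77, 3.54 and 2.16 CPM in WT (log2 -0.04 ± 0.30). Its libraries were fully interleaved.

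Dna2, a nuclease and helicase of long-range resection, was the resection gene that stood highest in EKO relative to WT, at 14.4, 14.4 and 17.7 CPM against 10.2, 8.06 and 13.3 CPM. The groups did not overlap, with WT replicate 3 close below the EKO libraries (log2 0.55 ± 0.23 SE, edgeR adjusted p = 0.155). Limma-voom with sample quality weights gave an adjusted p of 0.0442, the lowest in a range that reached 0.436 over 15 alternatives. Rbbp8 (CtIP), which starts resection with the Mre11 nuclease, had overlapping groups (log2 0.25 ± 0.21). So did the RecQ helicases Blm (-0.15 ± 0.34) and Wrn (-0.13 ± 0.12), the latter at 35.9 to 37.7 CPM in EKO and 36.1 to 45.9 CPM in WT.

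**Figure D2:**
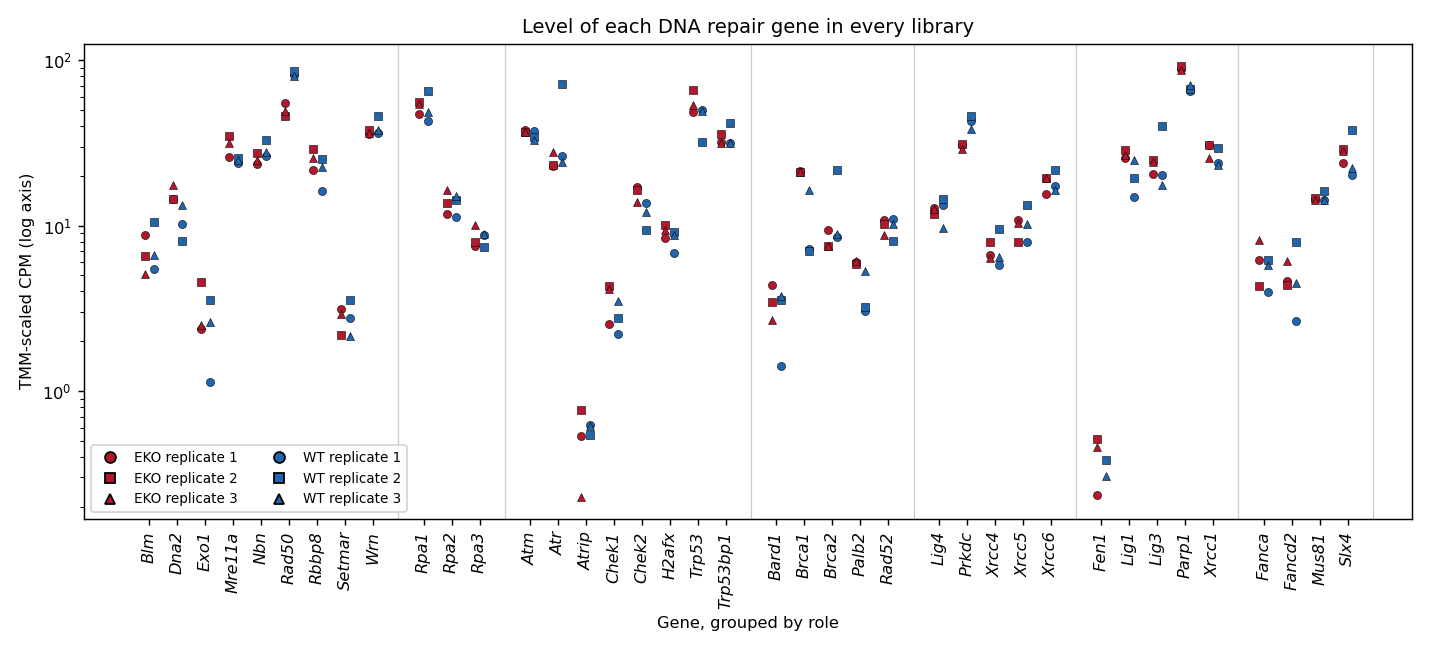
Level of each of the 39 repair genes in every library, as TMM-scaled CPM on a log axis, grouped by role; red marks EKO, blue WT, and the symbol the replicate. Levels run from under 1 CPM for Atrip and Fen1 to 92.7 CPM for Parp1 in EKO replicate 2, most genes overlap between genotypes, and Fen1 in WT replicate 1, with 0 counts, is not drawn.

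RPA, the trimer that coats single-stranded DNA, had nearly equal means in the genotypes. Rpa1, the large subunit, stood at 47.1, 56.1 and 54.4 CPM in EKO, against 43.1, 65.0 and 48.5 CPM in WT. The WT libraries spanned the EKO ones on both sides, with a log2 difference of 0.01 ± 0.17 (SE). Rpa2, the subunit that damage kinases phosphorylate, was at 11.7, 13.6 and 16.3 CPM in EKO and 11.3, 14.3 and 15.0 CPM in WT (log2 0.04 ± 0.20). Rpa3, the small subunit, was at 7.49, 7.95 and 10.1 CPM in EKO and 8.76, 7.46 and 8.83 CPM in WT (log2 0.03 ± 0.20). The edgeR adjusted p was 0.913 to 0.976 for the subunits, and each log2 difference turned negative under library totals, upper-quartile factors and DESeq2 size factors, with -0.091 for Rpa1 the lowest.

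Among damage signalling genes the median size of the log2 difference was 0.29, against 0.19 over the members and 0.40 over all tested genes. A single high WT library stood out for Atr. Atr (chromosome 9, 95857597 to 95951781, plus strand), the kinase activated by RPA-coated DNA at stalled forks, stood at 23.0, 23.3 and 28.0 CPM across the EKO libraries, against 26.2, 71.6 and 24.3 CPM across the WT libraries. WT replicate 2 was 2.83 times the mean of the other WT libraries, which lay among the EKO libraries. The log2 difference was -0.72 ± 0.43 (SE, edgeR adjusted p = 0.284) with all libraries and -0.08 without WT replicate 2 (adjusted p = 0.741, in a range of 0.206 to 0.811 over 15 alternatives). Atrip, the partner that recruits Atr, had 4 to 12 counts per library and could not be compared at this depth; 16% of its annotated exon bases are shared with Trex1 on the same strand. Atm, the kinase of double-strand breaks, was among the steadiest members, at 36.7 to 37.8 CPM in EKO and 32.9 to 37.2 CPM in WT (log2 0.09 ± 0.10).

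The checkpoint kinases lie downstream of Atr and Atm. Chek2, the main target of Atm, stood at 17.1, 16.4 and 13.8 CPM in EKO, against 13.7, 9.42 and 12 CPM in WT. All EKO libraries were higher, but the lowest of them nearly equalled the highest WT library (log2 0.43 ± 0.20 SE, edgeR adjusted p = 0.191). Chek1, the main target of Atr, was at 2.54, 4.30 and 4.12 CPM in EKO and 2.20, 2.78 and 3.49 CPM in WT, with overlap (0.37 ± 0.32). Trp53, which encodes p53, stood at 48.6, 66.4 and 53.2 CPM in EKO, against 49.9, 32 and 49.1 CPM in WT. Its log2 difference of 0.36 ± 0.21 (SE, edgeR adjusted p = 0.271) was 0.12 without WT replicate 2, the lowest library. Trp53bp1, which shields breaks from resection, and H2afx, the histone phosphorylated around breaks, had overlapping groups and log2 differences of -0.08 ± 0.15 and 0.18 ± 0.20.

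In the recombination group Brca1 was the member that differed most. Brca1 (chromosome 11, 101488764 to 101551955, minus strand), which promotes resection, stood at 21.4, 21.1 and 21.0 CPM across the EKO libraries, against 7.18, 7.03 and 16.3 CPM across the WT libraries. The EKO libraries were nearly identical, while WT replicate 3 was well above the other WT libraries and nearer to EKO. The means were 21.2 ± 0.195 and 10.2 ± 5.33 CPM (SD, n = 3), 2.08-fold higher in EKO, with a log2 difference of 1.06 ± 0.36 (SE) and an edgeR adjusted p of 0.103. Over 15 alternatives the adjusted p ranged from 0.0219, with quality-weighted limma-voom, to 0.296, and 1 alternative passed.

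The genes of Brca1-binding proteins differed less, or in the other direction. Palb2, the bridge between Brca1 and Brca2, stood at 6.02, 5.84 and 6.06 CPM in EKO, against 3.05, 3.21 and 5.34 CPM in WT, the same order of libraries within WT replicates 1 and 2 against 3 as for Brca1 (log2 0.62 ± 0.28 SE, edgeR adjusted p = 0.181). Bard1, the ubiquitin ligase partner of Brca1, was at 4.36, 3.46 and 2.69 CPM in EKO and 1.41, 3.54 and 3.75 CPM in WT, with overlap (0.27 ± 0.43). Brca2, a mediator of homologous recombination, stood at 9.44, 7.57 and 7.49 CPM in EKO, against 8.53, 21.6 and 8.93 CPM in WT. As for Atr, WT replicate 2 stood alone, at 2.47 times the mean of the other WT libraries, and the log2 difference of -0.67 ± 0.40 (SE, edgeR adjusted p = 0.279) was -0.15 without that library. Rad52, a strand-annealing protein, was at 8.75 to 10.8 CPM in EKO and 8.06 to 10.9 CPM in WT (0.03 ± 0.20).

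**Figure D3:**
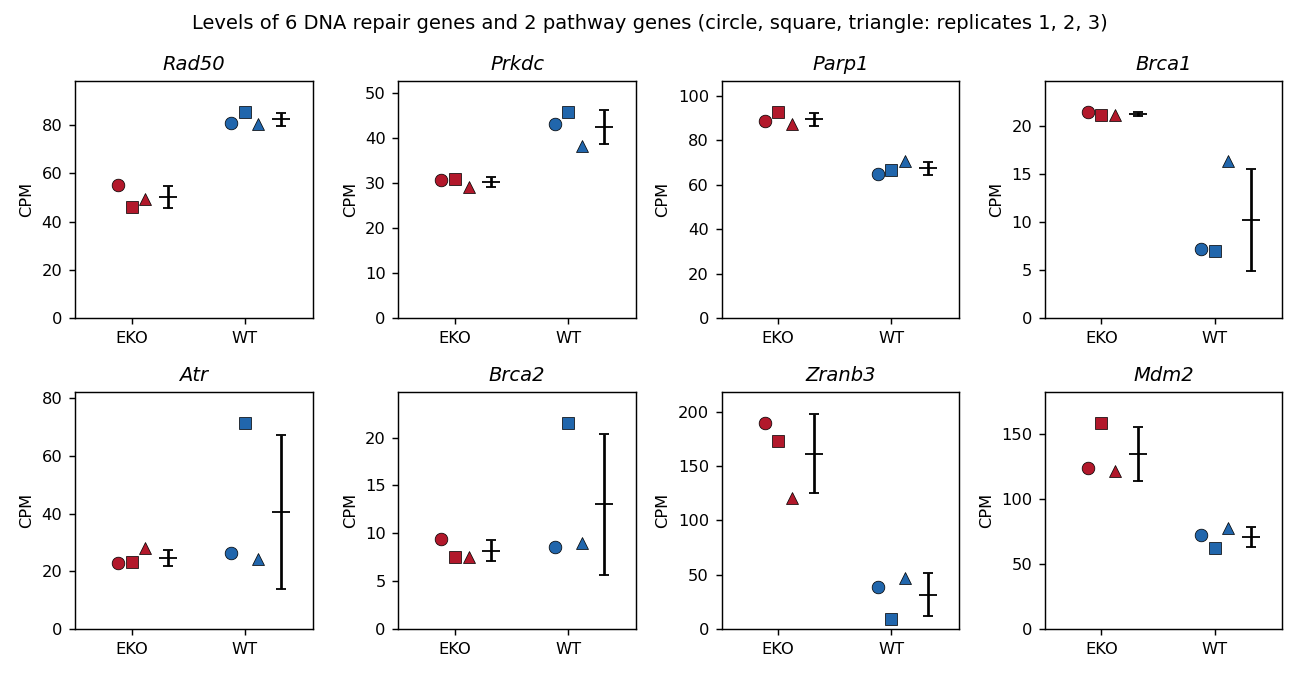
CPM in every library for 6 repair genes and for the pathway genes Zranb3 and Mdm2; symbols are replicates, and the bar beside each group is the mean with its SD (n = 3). Rad50 and Prkdc are lower in every EKO library, Parp1, Brca1, Zranb3 and Mdm2 are higher, and for Atr and Brca2 WT replicate 2 alone lies apart, at 71.6 and 21.6 CPM.

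End joining rejoins broken ends without a template. Prkdc (chromosome 16, 15637866 to 15842235, plus strand), the catalytic subunit of DNA-dependent protein kinase, stood at 30.7, 30.9 and 29.1 CPM across the EKO libraries, against 43.0, 45.7 and 38.3 CPM across the WT libraries. All EKO libraries lay below all WT libraries and close together. The means of 30.2 ± 1.03 and 42.4 ± 3.77 CPM (SD, n = 3) differed 1.40-fold, a log2 difference of -0.49 ± 0.11 (SE) with an edgeR adjusted p of 0.0630. DESeq2 gave an adjusted p of 0.00239, the lowest of 15 alternatives that reached up to 0.229, and 2 of them passed.

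The other end-joining genes overlapped between genotypes. Xrcc6 and Xrcc5, the Ku70 and Ku80 subunits that bind ends and recruit the kinase, had log2 differences of -0.03 ± 0.18 and -0.11 ± 0.25. Xrcc4, the scaffold of the ligation complex, and Lig4, its ligase, were at -0.05 ± 0.26 and -0.02 ± 0.20. All 5 genes were highest in WT replicate 2, and without that library 4 of the 5 log2 differences were above 0, Prkdc remaining at -0.48.

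Per kilobase of annotated exon, Parp1 averaged 16.9 CPM in EKO, the highest level of all members, and 12.7 CPM in WT, where Rad50 at 15.3 CPM was above it. Parp1 (chromosome 1, 180568924 to 180601254, plus strand), which senses nicks and marks them with poly(ADP-ribose), stood at 88.6, 92.7 and 87.2 CPM across the EKO libraries, against 64.9, 66.7 and 70.5 CPM across the WT libraries. The groups were clearly apart, with little spread in either. The means were 89.5 ± 2.87 and 67.4 ± 2.88 CPM (SD, n = 3), a 1.33-fold higher level in EKO with a log2 difference of 0.41 ± 0.09 (SE) and an edgeR adjusted p of 0.0628. The DESeq2 Wald test gave 0.00715, within a range of 0.00715 to 0.231 over 15 alternatives, of which 2 passed. The log2 difference ran from 0.31 to 0.45 over those alternatives.

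The other tested genes of nick and flap repair were less distinct. Lig1, the ligase that seals replication fragments, stood at 25.7, 28.7 and 26.7 CPM in EKO, against 14.8, 19.3 and 25 CPM in WT. WT replicate 3 again lay next to the EKO libraries (log2 0.46 ± 0.21 SE, edgeR adjusted p = 0.182). Xrcc1, the scaffold that Parp1 recruits, had overlapping groups (0.18 ± 0.15). Lig3, its ligase, was at 40.2 CPM in WT replicate 2 and at 17.6 to 24.8 CPM in every other library (-0.16 ± 0.33). Of its annotated exon bases 25.1% are shared with Rffl on the opposite strand, and how the counts treat strand is not stated.

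Fen1, the flap nuclease of lagging-strand replication, had 4, 8 and 8 counts in EKO and 0, 7 and 6 in WT. Of its annotated exon bases 84.2% are shared with other genes, 78.8% with Gm10143 on the opposite strand, and whether reads there were counted is not stated. Among genes of crosslink repair and junction cutting the groups overlapped throughout. Fancd2 and Fanca, of the Fanconi anaemia pathway, had log2 differences of 0.00 ± 0.42 and 0.22 ± 0.32. The nuclease genes Mus81 and Slx4 were at -0.04 ± 0.14 and 0.01 ± 0.26, and Mus81 was steady at 14.2 to 16.2 CPM in all libraries.

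The 250 bases before the annotated start are shown for Brca1 and Parp1, the members higher in EKO with the smallest p, and for Mre11a, the partner of Rad50 that was higher in all EKO libraries. Sequences are from RefSeq on GRCm38.p6, where 31 of the 39 members had an entry. Capitals mark CCAAT or its reverse complement, the letters bound by the factor NF-Y.
Brca1, chr11:101551956-101552205, minus strand: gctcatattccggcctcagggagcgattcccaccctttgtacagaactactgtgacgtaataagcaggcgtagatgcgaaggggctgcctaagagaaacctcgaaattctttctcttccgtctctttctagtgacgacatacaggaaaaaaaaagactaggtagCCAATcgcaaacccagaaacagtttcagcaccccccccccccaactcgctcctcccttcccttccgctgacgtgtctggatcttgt
Parp1, chr1:180568641-180568890, plus strand: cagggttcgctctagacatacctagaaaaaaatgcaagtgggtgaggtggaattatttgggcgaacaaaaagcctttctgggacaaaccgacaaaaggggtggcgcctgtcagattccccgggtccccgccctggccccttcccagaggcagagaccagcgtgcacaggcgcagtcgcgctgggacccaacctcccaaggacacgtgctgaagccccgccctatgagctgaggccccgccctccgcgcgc
Mre11a, chr9:14784404-14784653, plus strand: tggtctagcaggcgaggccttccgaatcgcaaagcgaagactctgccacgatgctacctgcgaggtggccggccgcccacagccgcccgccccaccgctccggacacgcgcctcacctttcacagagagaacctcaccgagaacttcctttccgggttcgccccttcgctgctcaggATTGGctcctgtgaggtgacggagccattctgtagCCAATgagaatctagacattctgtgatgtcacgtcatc
CCAAT was searched on both strands, and 14 of the 31 members (45.2%) held it, against 39.9% of 11404 genes, tested here or members, with an entry. Of the words that E2F factors bind, only TTTGGCGC and TTTCGCGC were searched. They were in 0 of 31 members and 1.32% of those genes. Other E2F words, such as TTTCCCGC in the window of Bard1, were not counted, so E2F sites may be present. TTTGAA, found in promoters of G2 and mitosis genes, was in 6.45% of members and 13.3% of those genes. A gene with several windows counted once if any held the letters, each motif was searched on both strands, and overlaps between motifs were not removed. The window of Brca1 held CCAAT at 1 place and that of Mre11a at 2, while that of Parp1 held none. Some members' windows lay inside the gene's annotated span rather than before it. Among these were the windows of Slx4 and Xrcc1, with CCAAT at 1 place each, and of Xrcc6, with none.

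Across libraries the members shared patterns that cut across genotype. WT replicate 2 was the highest library for 18 of the 38 tested members (47.4%), against 29.2% of all tested genes, and WT replicate 1 the lowest for 16, against 14.3% of all tested genes. Members highest in WT replicate 2 by the widest margin over the other WT libraries were Atr, Brca2, Fancd2 (2.20 times) and Lig3 (2.13 times). The germ cell markers that stood high in the same library included meiotic ones, 10 genes summing to 141 CPM there and to 5.58 to 32.7 CPM in the other libraries; their part in the high repair transcripts was not tested. Without WT replicate 2 the members' median log2 difference was 0.13, with 28 higher and 10 lower in EKO, while the median over all tested genes was 0.02.

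**Figure D4:**
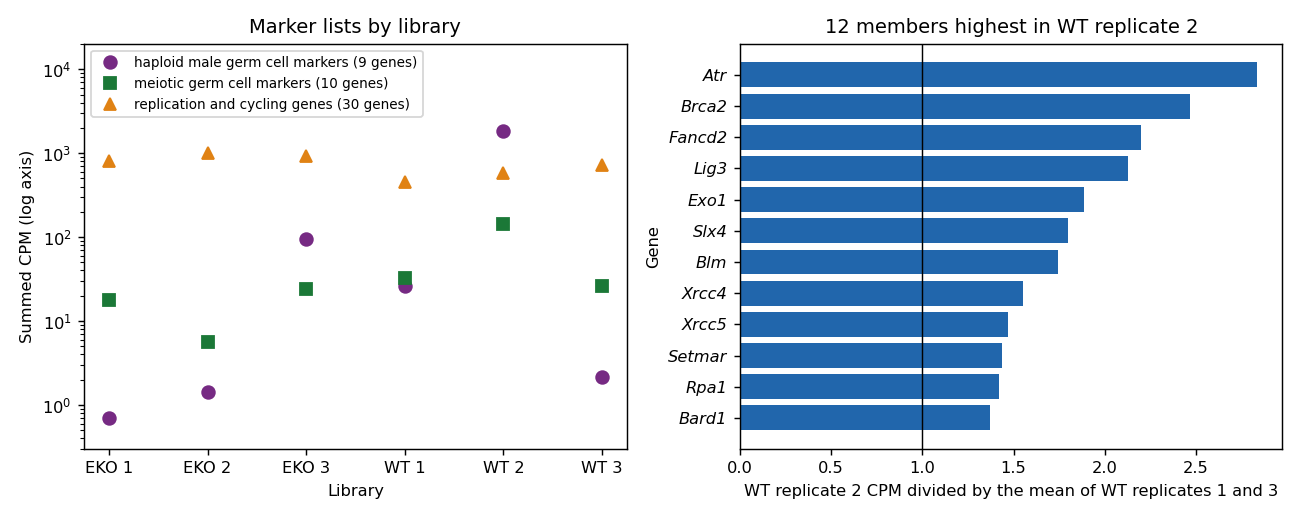
Left, summed CPM of 3 gene lists in each library on a log axis; right, the ratio of WT replicate 2 to the mean of WT replicates 1 and 3 for the 12 tested members with the highest ratio. Haploid germ cell markers reach 1856 CPM in WT replicate 2, and Atr and Brca2 head the ratios at 2.83 and 2.47.

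WT replicate 1 was the lowest library for Exo1, Bard1, Chek1, Fancd2, Palb2 and Lig1, among others. Replication and cycling genes were lowest there too, 30 genes summing to 450.5 CPM in WT replicate 1, 583 and 724 CPM in WT replicates 2 and 3, and 811 to 994 CPM in EKO. Of these 30 genes 27 were higher in EKO, 13 with non-overlapping groups (25.1% of all tested genes), at a median log2 difference of 0.49, or 0.28 without WT replicate 1. Their part in the levels of the repair genes was not tested. Pcna, the sliding clamp of replication, stood at 169, 267 and 195 CPM in EKO, against 81.2, 82.3 and 118 CPM in WT (log2 1.17 ± 0.23 SE, edgeR adjusted p = 0.0628). Cdk1 and Mcm6, a mitotic kinase and a helicase subunit, were at 0.85 ± 0.25 and 0.75 ± 0.23. Among the WT libraries replicate 3 had the highest sum of these genes. Of the 38 tested members, WT replicate 3 was the highest library for 0 and WT replicate 2 for 18.

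**Figure D5:**
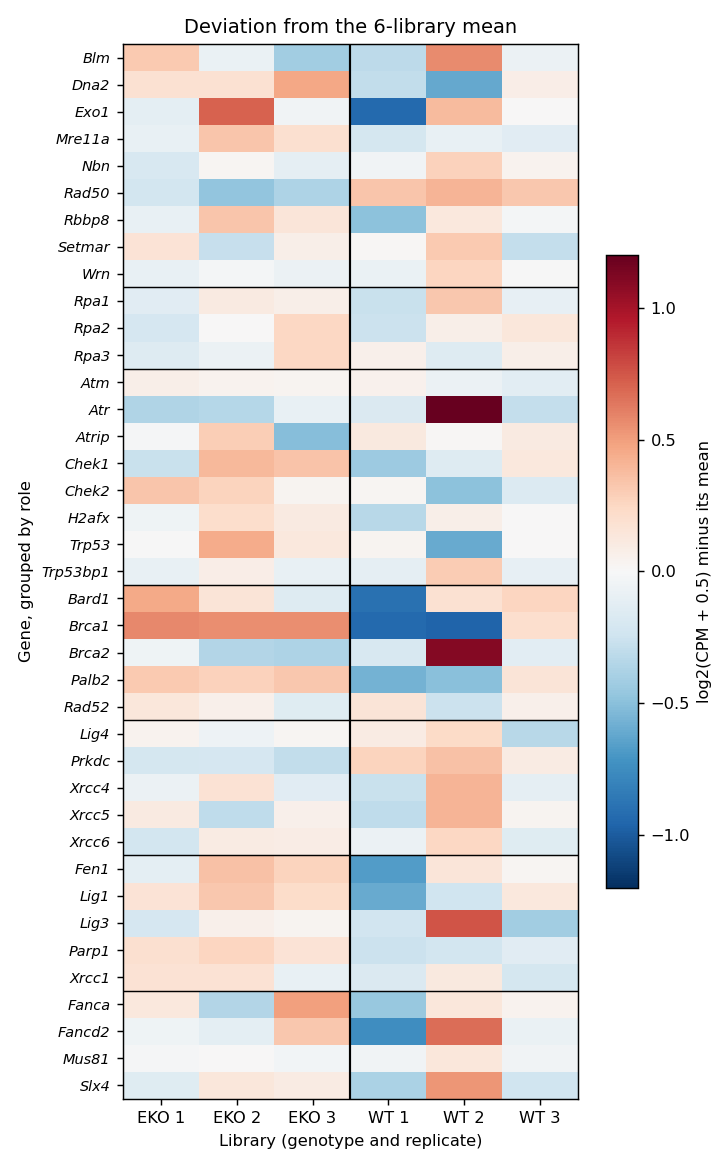
Deviation of each repair gene from its mean over the 6 libraries, on the log2(CPM + 0.5) scale, with genes grouped by role and libraries by genotype. Red cells gather in WT replicate 2, the highest library for 18 members, and blue cells in WT replicate 1, the lowest for 16; Rad50 and Prkdc are blue and Parp1 and Brca1 red in all 3 EKO libraries.

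Other genes of the same pathways were described from 7 lists of repair and fork factors, 108 tested genes in all that are not members. By sign, 58 were higher in EKO and 50 lower, at a median log2 difference of 0.03; 20 had all EKO libraries above WT (25.1% of all tested genes did) and 16 all below (17.7%). The edgeR test called 0 of them at an adjusted p under 0.05, and 17 passed at an unadjusted p under 0.05, against 32.7% of all tested genes. The DESeq2 Wald test called 3 higher and 5 lower, against 10.9% and 10.1% of the genes it tested. Zranb3 (chromosome 1, 127954184 to 128103047, minus strand), a translocase that binds Pcna and remodels stalled forks, differed most among the genes named from these lists. It stood at 190, 173 and 121 CPM across the EKO libraries, against 38.8, 8.93 and 46.7 CPM across the WT libraries. Every EKO library was far above every WT library, and WT replicate 2 was the lowest, a 5.13-fold difference of means with a log2 difference of 2.36 ± 0.58 (SE). The edgeR adjusted p was 0.0663, and 0.0386 when WT replicate 2 was left out, and 15 alternatives spanned 0.000742 to 0.229. Of its annotated exon bases 7.78% are shared with Gm28800 on the opposite strand.

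Of the 22 fork reversal and checkpoint genes tested, 15 were higher and 7 lower in EKO, with 9 all above WT and 1 all below (25.1% and 17.7% of all tested genes) and a median log2 difference of 0.27, or 0.12 without WT replicate 1. Topbp1, which activates Atr, and Tonsl, a factor of stalled fork repair, were at 0.31 ± 0.10 and 0.26 ± 0.09. Among 24 other recombination genes, Sem1, a small partner of Brca2, was higher in EKO (log2 0.54 ± 0.10 SE) and the recombination genes Rad51d and Xrcc2 were lower (-0.99 ± 0.23 and -0.52 ± 0.20). That list split into 14 higher and 10 lower, at a median of 0.04, and into 11 and 13 with library totals alone. Among 16 other Fanconi genes Fance was at 0.41 ± 0.13, Fan1 at -0.47 ± 0.21 and Faap20 at -0.36 ± 0.19, and 7 were higher and 9 lower, but 12 and 4 without WT replicate 2. Among 10 other end-joining genes, 5 were higher and 5 lower, with the end-processing nuclease Dclre1c (Artemis) at 0.59 ± 0.28, Tdp2 at 0.31 ± 0.15 and Paxx at -0.38 ± 0.19.

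Excision and mismatch repair genes stood in both directions. In nucleotide excision repair Xpc, the lesion sensor, and Uvssa, of the transcription-coupled branch, were lower in EKO (log2 -0.50 ± 0.13 and -0.56 ± 0.15 SE), while Ercc6 (Cockayne syndrome B), of the same branch as Uvssa, was higher, at 69.7, 73.3 and 67.1 CPM against 42.2, 20.9 and 41.0 CPM (1.01 ± 0.27, edgeR adjusted p = 0.0697 and 0.0425 without WT replicate 2, in a range of 0.0157 to 0.2454). Of 15 genes 8 were higher and 7 lower, with 2 all above and 4 all below WT (25.1% and 17.7% of all tested genes); with library totals alone the split was 6 and 9. In the list taken for base excision repair, Parp3, Mutyh and Ung were lower (-0.47 ± 0.13, -0.90 ± 0.33 and -0.68 ± 0.29), within 7 higher and 9 lower of 16. The mismatch genes Msh3 and Mlh3 were at -0.65 ± 0.27 and -0.41 ± 0.18, both below WT in every EKO library. Of 7 mismatch genes 4 were higher and 3 lower, and 1 and 6 with library totals alone. In 0 of the 7 all EKO libraries lay above WT and in 3 all below (25.1% and 17.7% of all tested genes). The edgeR adjusted p of the 8 excision and mismatch genes named here ran from 0.0670 to 0.179.

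Targets of p53 stood on both sides, and Trp53 itself overlapped between genotypes. Mdm2, the ubiquitin ligase that degrades p53, stood at 123, 158 and 121 CPM in EKO, against 72.0, 62.2 and 77.8 CPM in WT, without overlap (log2 0.93 ± 0.15 SE, edgeR adjusted p = 0.0628). Plk2, a stress-induced kinase, was at 200, 222 and 215 CPM in EKO and 67.8, 36.0 and 98.2 CPM in WT (1.66 ± 0.35). Phlda3, an Akt inhibitor, went the other way, at 133, 106 and 139 CPM in EKO and 279, 208 and 227 CPM in WT (-0.92 ± 0.17). Without WT replicate 2 the adjusted p was 0.0537, 0.0425 and 0.0460 for Mdm2, Plk2 and Phlda3, and over 15 alternatives it ranged from 0.000216, 0.000383 and 7.24e-05 up to 0.229 for each. Of 24 targets tested, 13 were higher and 11 lower, at a median log2 difference of 0.05. The split was 11 higher and 13 lower with library totals alone, and 10 and 14 without WT replicate 2, at medians of -0.045 and -0.054. Of the 24, 7 lay all above and 5 all below WT, against 25.1% and 17.7% of all tested genes. At an adjusted p under 0.05 edgeR called 0 of them. At an unadjusted p under 0.05, 5 higher and 5 lower passed, against 18.9% and 13.8% of all tested genes.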

How the data were processed

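Bulk mRNA of epididymal fat was sequenced in 6 libraries, grouped by the genotype in the labels. The authors deposited raw read counts per gene, per the file headers. The same table holds the authors' mean normalized signal, fold change (a ratio), log2 fold change, p-value and adjusted p-value, per the file headers; 1 adjusted p is quoted. Per the submitters' processing notes the build was GRCm38; no aligner, counting tool or strand setting is named in the sources used here. A count of 0 allows 3 counts, or 0.154 to 0.192 CPM, for counting error only. No 2 libraries agreed within sampling noise: the lowest chi-square per degree of freedom was 20.6.

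The test was the quasi-likelihood F test of edgeR 4.0.16 in R 4.3.3, on genes kept by filterByExpr with TMM factors and a genotype term, over 6 libraries and 16121 genes, with Benjamini-Hochberg adjustment over all of them at 0.05. Standard errors are the log2 difference over the square root of F. The adjustment can give the same value to genes of different unadjusted p, so a shared 0.0628 or 0.229 is not particular to a gene. Alternatives were other scalings and count filters, DESeq2 1.42.0, limma-voom (limma 3.58.1) with and without sample quality weights, the replicate number as a block, and each library left out in turn. The fits were tested on simulated data, where a larger share of DESeq2's calls than of edgeR's were false. There edgeR also found a smaller share of the true changes than DESeq2 did. The simulation took its dispersions from edgeR and held no outlying library, so these shares may differ in the real data.

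Exon lengths and overlaps come from GENCODE M21 (GRCm38), which may not be the annotation behind the counts. The members, lists and tests were chosen with earlier results of these data known. By rule, values in full are given for Eepd1, Exo1, Setmar, the RPA genes and the 12 members of smallest p, and each pathway list names its 3 genes of smallest p, apart from 1 gene that is not reported here; other members' values are descriptions. The motif search was added after the data were seen.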

Additional observations from a re-analysis of the deposited data

How the results depend on the processing

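With edgeR, the count of genes called stayed at 0 under every scaling and filter, under limma-voom and under the replicate block, for all genes and for the members. DESeq2 called 3392 genes (21.0% of those it tested), 3 of them members. Limma-voom with sample quality weights called 4101 genes (25.4%), 5 of them members (Rad50, Prkdc, Parp1, Brca1 and Dna2). The cause was not tested. Leaving out 1 library gave 0 to 443 genes and 0 to 1 members. The 443 genes (2.69% of those tested) and Rad50, 1 of 38 members, came without WT replicate 2. The members' median log2 difference was 0.19 with quality weights and -0.071 to 0.13 with 1 library left out. Members at an unadjusted p under 0.05 numbered 3 to 7 with 1 library left out, the 7 without WT replicate 3. The share of all tested genes at that threshold was 32.7% with all libraries, and was not counted with 1 left out. Library totals alone moved the median of all genes by -0.0995, and the members moved with it.

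The labels do not say whether the replicate numbers pair the libraries. Deviations from the genotype means correlated at 0.272, -0.312 and -0.355 for numbers 1, 2 and 3. With 3 libraries per genotype these values cannot decide whether a pairing exists. With the replicate block, edgeR called 0 genes and 0 members, and the members' median was 0.035.

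Some of the members whose groups overlapped changed sign with the setting, none past the threshold, and the cause was not tested. With limma-voom with sample quality weights it was 0.13 for Setmar, 0.0579 for Blm, 0.00930 for Trp53bp1, -0.14 for Rad52, 0.11 for Xrcc4, 0.22 for Xrcc5, 0.0627 for Xrcc6, 0.0228 for Lig4, 0.18 for Lig3, 0.00951 for Mus81. With DESeq2 size factors it was -0.0340 for Rpa1, -0.00992 for Rpa2, -0.0222 for Rpa3, -0.0193 for Rad52, -0.0317 for Slx4, -0.0364 for Fancd2. With library totals alone it was -0.0911 for Rpa1, -0.0616 for Rpa2, -0.0678 for Rpa3, -0.00438 for Atm, -0.0733 for Rad52, -0.0899 for Slx4, -0.0884 for Fancd2. With upper-quartile factors it was -0.0838 for Rpa1, -0.0550 for Rpa2, -0.0639 for Rpa3, -0.0663 for Rad52, -0.0832 for Slx4, -0.0847 for Fancd2. With no count filter it was -0.0125 for Rpa1, -0.0195 for Rpa3, -0.0217 for Rad52, -0.000599 for Slx4. With a filter of at least 1 CPM in 3 libraries it was -0.0296 for Rpa1, -0.00371 for Rpa2, -0.0154 for Rpa3, -0.0161 for Rad52, -0.0272 for Slx4, -0.0289 for Fancd2. With DESeq2 Wald test it was -0.0232 for Rpa1, -0.000738 for Rpa2, -0.0126 for Rpa3, -0.00982 for Rad52, -0.0202 for Slx4, -0.0258 for Fancd2. With limma-voom it was 0.00806 for Lig4. With 1 library left out in turn, the log2 difference ranged over -0.00552 to 0.68 for Exo1, -0.19 to 0.10 for Setmar, -0.13 to 0.14 for Rpa1, -0.10 to 0.16 for Rpa2, -0.11 to 0.12 for Rpa3, -0.36 to 0.11 for Blm, -0.66 to 0.13 for Atrip, -0.17 to 0.0150 for Trp53bp1, -0.0770 to 0.51 for Bard1, -0.14 to 0.12 for Rad52, -0.20 to 0.14 for Xrcc4, -0.29 to 0.0477 for Xrcc5, -0.10 to 0.0875 for Xrcc6, -0.16 to 0.0489 for Lig4, -0.37 to 0.24 for Lig3, -0.17 to 0.29 for Slx4, -0.31 to 0.43 for Fancd2, -0.0169 to 0.41 for Fanca. Rad50, Prkdc, Parp1, Brca1, Dna2, Palb2, Lig1, Mre11a and Chek2 kept their sign in all 15 alternatives. Low counts limit Exo1, Setmar, Chek1, Bard1 and Atrip, and 3 libraries per genotype limit all members.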
